A study of Mus musculus with 6 samples.

Results

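MiR-23a, miR-23b, miR-27a, miR-27b and miR-24 are the mature products of a pair of miRNA gene clusters in the mouse. The a cluster holds Mir23a, Mir27a and Mir24-2, and the b cluster holds Mir23b, Mir27b and Mir24-1. Their assays were found by an exact match of the name on the mouse array, which gave 5 of 596 mouse miRNA assays. All 5 were amplified in all 6 samples.

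MiRNAs were measured in whole aortas of Apoe-/- mice fed a high-fat diet for 4 weeks, to ask which miRNAs of the atherosclerotic artery depend on Dicer in endothelial cells (ECs). Of the 6 mice, 3 carried VE-Cadherin-CreERT2 with Dicer1 flox/flox (EC-Dicerflox) and 3 were littermates that carried the same Cre with Dicer1 WT/WT (EC-DicerWT). Both groups lacked Apoe, and the age given for both is 6 to 8 weeks, in the paper the age at the start of the diet. Both received tamoxifen before the diet, 2 mg per 20 g body weight for 5 days. The controls therefore share the Cre, the drug and the diet. VE-cadherin drives the Cre in ECs, whereas the RNA came from the whole vessel with its smooth muscle cells and leukocytes, in which this Cre is not driven. A lower signal from fewer ECs and less RNA per EC cannot be told apart in such samples, and Dicer1 itself was not analysed here, since the arrays hold miRNA assays.

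Dicer cuts the loop from a hairpin precursor, and a strand of the duplex that is left becomes the mature miRNA, which finds its target mRNAs mainly through its seed, the bases near the 5′ end. In ECs, the miR-23 and miR-27 families are known for promoting vessel sprouting, among others through the targets Sprouty2 and Sema6A, and miR-27b also represses the Notch ligand Dll4. MiR-24 is known for restraining EC survival and vessel growth through GATA2 and PAK4, so mature RNAs described with opposite roles are cut from the same transcript.

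The mature sequences show what an assay has to tell apart. Of the 5 members, 4 were matched to a mature sequence of RefSeq (build GRCm38.p6), and miR-23b was not. The capitals mark the seed, bases 2 to 8 from the 5′ end.
miR-23a: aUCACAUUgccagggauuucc
miR-27a: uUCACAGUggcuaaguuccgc
miR-27b: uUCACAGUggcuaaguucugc
miR-24: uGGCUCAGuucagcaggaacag
MiR-27a and miR-27b share their seed and differ by 1 of 21 bases, C19U (miR-27a first, counted from the 5′ end). Each was measured by an assay of its own, but how far each assay also reads the other paralog was not tested. MiR-24 is made from both Mir24-2 and Mir24-1 with 1 sequence, so its level is the sum over both clusters. Among the 6 star strands of these hairpins, the only listed assay was miR-24-2*, the other arm of Mir24-2 in the a cluster. It shares its seed with miR-24-1-5p, the other arm of Mir24-1 in the b cluster. How far the assay also reads that strand was not tested.
miR-24-2*: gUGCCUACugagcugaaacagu

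The hairpins differ more than their products. On the plus strand of chromosome 8 (GRCm38.p6), the a cluster spans 404 bases from the start of Mir23a (chr8:84208518-84208592) through Mir27a (chr8:84208672-84208758) to the end of Mir24-2 (chr8:84208815-84208921). On the plus strand of chromosome 13, the b cluster spans 792 bases, with Mir23b at chr13:63300484-63300557, Mir27b at chr13:63300712-63300784 and Mir24-1 at chr13:63301208-63301275. All 3 hairpins of the b cluster lie within the gene Aopep, which codes for an aminopeptidase, while no other gene of the annotation overlaps Mir23a or Mir27a. Mir24-2 and Mir24-1 are each annotated together with another miRNA gene, Mir3074-2 and Mir3074-1. The precursors of the paralogs that end in the same or nearly the same mature RNA are shown with the 3′ arm in capitals, the strand that became the member.
Mir27a: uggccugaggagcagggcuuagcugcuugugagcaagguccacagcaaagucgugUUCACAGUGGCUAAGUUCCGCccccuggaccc
Mir27b: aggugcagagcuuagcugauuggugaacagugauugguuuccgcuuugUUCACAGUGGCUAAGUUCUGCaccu
Mir24-2: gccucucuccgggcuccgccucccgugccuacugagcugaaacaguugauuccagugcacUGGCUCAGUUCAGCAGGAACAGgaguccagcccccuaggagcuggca
Mir24-1: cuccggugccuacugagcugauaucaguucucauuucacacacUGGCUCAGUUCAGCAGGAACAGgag
Between the annotated arms lie 20 bases in both Mir27a and Mir27b, 14 bases in Mir24-2 and 15 bases in Mir24-1. This is the stretch that Dicer removes.

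**Figure D1:**
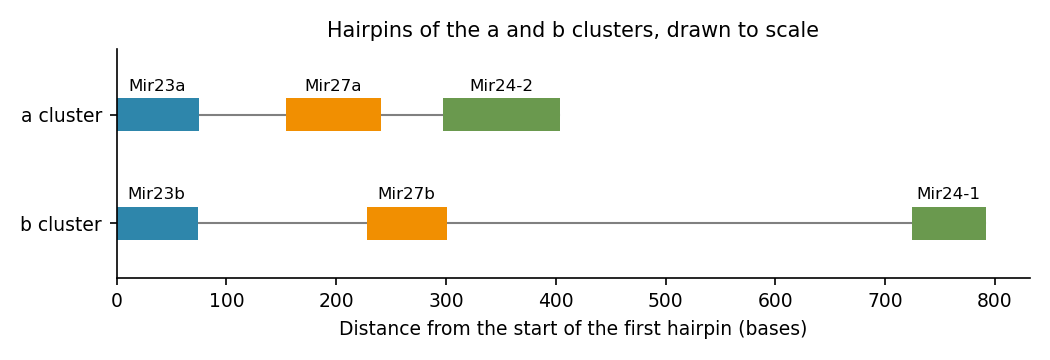
Map of the a cluster and the b cluster, drawn to scale as the distance in bases from the first base of the Mir23 hairpin. The boxes are the hairpins; the a cluster takes up 404 bases and the b cluster 792 bases, in the same order of miR-23, miR-27 and miR-24.

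The arrays report a CT value, the PCR cycle at which the signal crosses a threshold, so that 1 cycle less stands for about a doubling of the RNA, and 40 stands for no signal. Between 375 and 415 of the 596 miRNAs gave a CT under 40 in a sample. The median CT over the 350 miRNAs detected in all samples was highest in replicate 3 of both groups, at 28.2 in EC-Dicerflox 3 and 27.5 in EC-DicerWT 3, compared with 26.4 to 26.8 in the other 4 samples. The CT values of the members shifted in the same way, and levels between groups were therefore taken relative to U6 and snoRNA135.

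MiR-24 was among the strongest signals of the aorta. Its CT was 15.7, 15.5 and 16.6 in EC-Dicerflox 1 to 3, and 15.8, 15.7 and 16.5 in EC-DicerWT 1 to 3. With a mean of 15.96, it ranked 4 of the 350 miRNAs by CT. Both clusters feed this 1 product, and the groups overlapped.

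MiR-27b had CT values of 20.8, 20.6 and 21.97 in EC-Dicerflox, and of 20.6, 20.9 and 21.9 in EC-DicerWT. MiR-27a followed within a fraction of a cycle, at 21.0, 20.7 and 22.4 in EC-Dicerflox, and at 20.8, 21.2 and 22.1 in EC-DicerWT. They ranked 39 and 45. MiR-27a had the higher CT of the 2 in all 6 samples, by 0.119 to 0.399 cycles.

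MiR-23b, the first hairpin of the b cluster, was detected later, at 22.7, 22.4 and 23.9 cycles in EC-Dicerflox and at 22.9, 22.9 and 23.9 cycles in EC-DicerWT, and ranked 78. MiR-23a, the first of the a cluster, was far behind, with 29.7, 28.0 and 30.6 cycles in EC-Dicerflox and 28.7, 30.2 and 31.0 cycles in EC-DicerWT, and ranked 253. Its CT was 5.63 to 7.29 cycles above that of its paralog miR-23b, and on average 8.36 cycles above that of miR-27a, which is cut from the same transcript. The order of the CT values, miR-24, miR-27b, miR-27a, miR-23b and miR-23a, held in all 6 samples. The neighbours miR-27b and miR-27a were closer to each other than the range of either over the samples. Because each assay amplifies with its own efficiency, a CT gap between assays is not a ratio of molecules.

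The star strand miR-24-2* was detected at 20.9, 20.9 and 22.6 cycles in EC-Dicerflox and at 21.1, 21.1 and 22.05 cycles in EC-DicerWT. Its CT was close to those of both miR-27 paralogs, with miR-27a -0.21 to 0.07 and miR-27b -0.60 to -0.11 cycles from it, whereas miR-23a of its own cluster was 7.13 to 9.14 cycles above it.

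**Figure D2:**
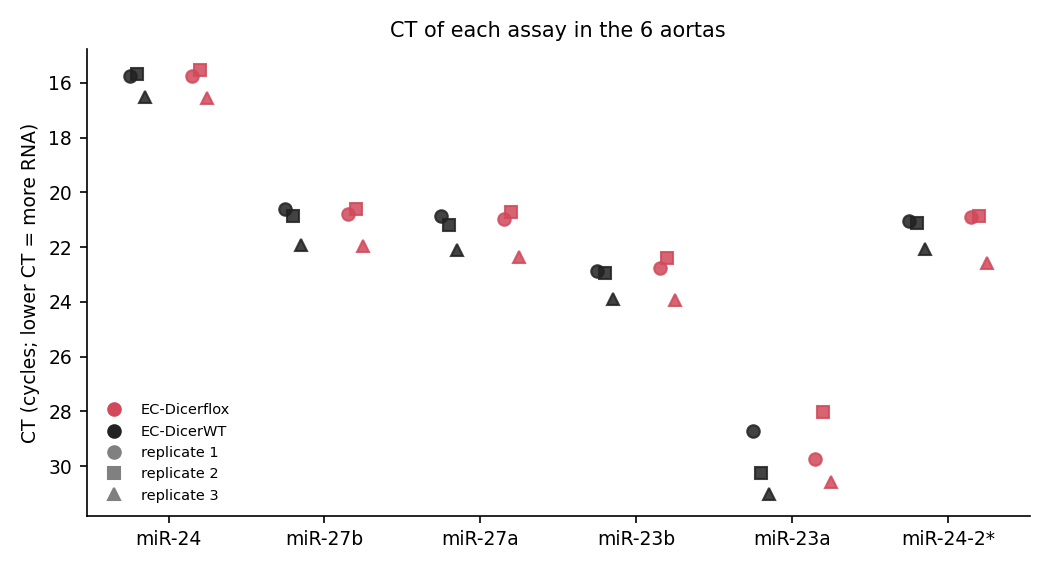
CT value of each member and of miR-24-2* in each of the 3 EC-Dicerflox and 3 EC-DicerWT aortas, with CT in cycles on the y axis (a lower CT is more RNA). MiR-24 lies near 16 cycles and miR-23a near 30, and replicate 3 of both groups has the highest CT of its group for each of them.

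Relative to the mean of U6 and snoRNA135, none of the 5 members passed the test between EC-Dicerflox and EC-DicerWT aortas. Here, the relative level is the mean CT of the controls minus the CT of the miRNA, on a log2 scale. All 5 estimates were above 0, with log2 differences between 0.16 and 0.70 and a median of 0.18, while over the 461 miRNAs tested 251 estimates were above 0 and the median was 0.08. With snoRNA202 alone as the reference, 4 of the 5 were above 0, and the median of the 350 miRNAs detected in all samples was -0.06 in place of 0.10. By limma, 0 of the 5 members had an unadjusted p under 0.05, against 14 of all 461 miRNAs (3.04%). After Benjamini-Hochberg adjustment over all miRNAs, 0 of 461 (0%) passed, and each of the 5 members had an adjusted p of 0.923. Leaving out EC-Dicerflox 1 gave 2 miRNAs that passed and leaving out EC-Dicerflox 3 gave 1, none of them a member.

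MiR-23b was the member whose groups lay apart. Its relative level was -3.86, -3.67 and -3.70 in EC-Dicerflox and -4.04, -4.00 and -4.29 in EC-DicerWT. All 3 EC-Dicerflox aortas were above all 3 EC-DicerWT aortas. The difference of 0.37 on the log2 scale (SE 0.232), a 1.29-fold higher level (95% confidence interval 0.859 to 1.94), had an unadjusted limma p of 0.171 and an exact permutation p of 0.1, the smallest that 3 against 3 samples allow. Separate groups with higher values in EC-Dicerflox were seen for 1 of 5 members and for 28 of the 461 miRNAs (6.07%). The separation of miR-23b depended on the reference. It was seen with 5 of 8 references, but the groups overlapped with U6 alone (exact p = 0.3), with snoRNA135 alone (exact p = 0.5) and with all 5 control RNAs (exact p = 0.3), as did the CT values themselves (exact p = 0.6).

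MiR-23a varied the most. Its relative level was -10.86, -9.31 and -10.37 in EC-Dicerflox and -9.92, -11.30 and -11.43 in EC-DicerWT. The highest level was in EC-Dicerflox 2 and the next in EC-DicerWT 1, so the groups overlapped. The log2 difference was 0.70 (SE 0.616, 95% confidence interval -0.85 to 2.26; limma p = 0.302, exact permutation p = 0.4). It was 0.27 without EC-Dicerflox 2 and 1.19 without EC-DicerWT 1. The pairs of equal number differed in sign, with -0.94, 1.99 and 1.06. The pooled SD within groups, 0.815, was above that of 71.4% of the 350 miRNAs, and the interval of its fold difference, 0.554 to 4.79, holds a marked loss as well as a marked gain.

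The paralogs miR-27a and miR-27b gave nearly the same estimate. The relative level of miR-27a was -2.09, -2.003 and -2.15 in EC-Dicerflox and -2.04, -2.23 and -2.51 in EC-DicerWT, a log2 difference of 0.18 (SE 0.247, 95% confidence interval -0.45 to 0.80; limma p = 0.504, exact permutation p = 0.3). That of miR-27b was -1.91, -1.88 and -1.75 in EC-Dicerflox and -1.81, -1.91 and -2.31 in EC-DicerWT, a log2 difference of 0.16 (SE 0.255, 95% confidence interval -0.49 to 0.80; limma p = 0.562, exact permutation p = 0.5). In both, EC-DicerWT 3 had the lowest level, and the other 2 EC-DicerWT aortas lay among or next to the EC-Dicerflox values. Without EC-DicerWT 3, the log2 difference was 0.05 for miR-27a and 0.01 for miR-27b.

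MiR-24, the shared product, had relative levels of 3.15, 3.16 and 3.67 in EC-Dicerflox and of 3.06, 3.27 and 3.10 in EC-DicerWT. EC-Dicerflox 3 was above the rest, and the other 5 samples spanned 3.06 to 3.27. The log2 difference was 0.18 (SE 0.266, 95% confidence interval -0.49 to 0.86, limma p = 0.516, exact permutation p = 0.5). It was 0.01 without EC-Dicerflox 3. For the star strand miR-24-2*, the other arm of Mir24-2, the log2 difference was 0.10 (SE 0.240, limma p = 0.689, exact permutation p = 0.5). The median over the 350 miRNAs detected in all samples was also 0.10.

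**Figure D3:**
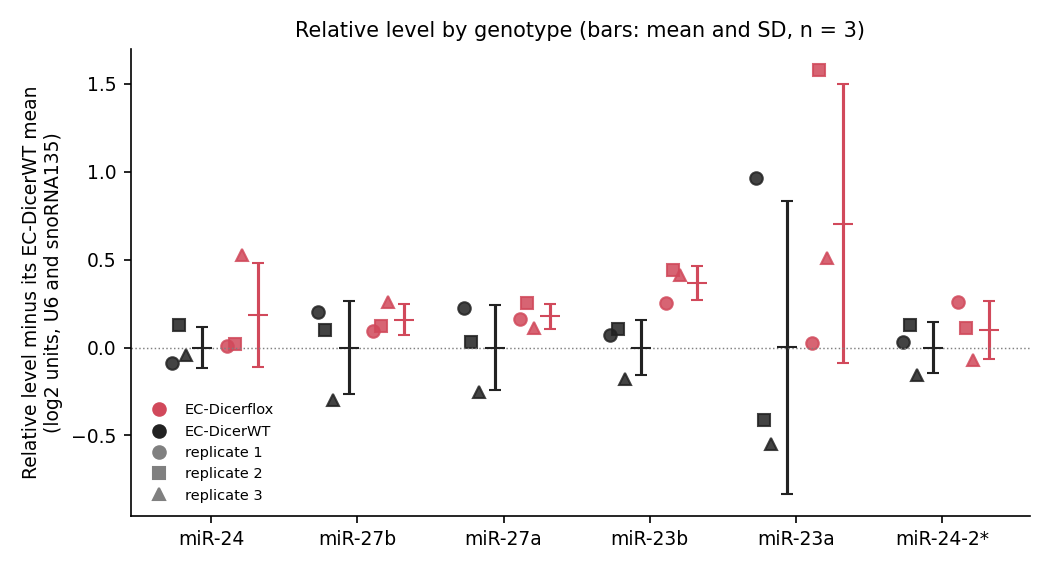
Relative level of each member (mean CT of U6 and snoRNA135 minus CT, log2 scale) in each EC-Dicerflox and EC-DicerWT aorta, with the group means. The points of miR-23b do not overlap between the groups (-3.86 to -3.67 against -4.29 to -4.00 before the EC-DicerWT mean is subtracted). Those of the other 4 members do, and miR-23a has the widest spread.

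The difference between the CT values of 2 members in the same sample needs no control RNA, and was used to compare the clusters and the cluster mates. Between the paralogs miR-27a and miR-27b, it was 0.179, 0.119 and 0.399 cycles in EC-Dicerflox and 0.230, 0.321 and 0.204 cycles in EC-DicerWT. The means of 0.232 ± 0.147 and 0.252 ± 0.061 (SD, n = 3) differed by less than the spread between replicates (exact permutation p = 0.8). The genotype difference of -0.02 cycles had no stable sign, from -0.10 without EC-Dicerflox 3 to 0.04 without EC-Dicerflox 2.

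Between the paralogs miR-23a and miR-23b, the CT difference was 7, 5.63 and 6.67 cycles in EC-Dicerflox and 5.88, 7.29 and 7.14 cycles in EC-DicerWT. The lowest value of each group was near 6 cycles and the others near 7, and the groups overlapped (6.43 ± 0.714 and 6.77 ± 0.776, SD, n = 3; exact permutation p = 0.5). The genotype difference of -0.34 cycles ranged from -0.78 without EC-DicerWT 1 to 0.07 without EC-Dicerflox 2. Averaged over miR-23 and miR-27, the a cluster lay 3.33 ± 0.397 cycles above the b cluster in EC-Dicerflox and 3.51 ± 0.401 cycles in EC-DicerWT, a difference of -0.18 cycles, which ranged from -0.41 to 0.05 when each sample was left out in turn. The sign changed without EC-Dicerflox 2.

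Cluster mates were compared in the same way. In the b cluster, miR-23b was 1.94, 1.79 and 1.96 cycles above miR-27b in EC-Dicerflox and 2.24, 2.10 and 1.98 cycles in EC-DicerWT. The groups did not overlap, although EC-Dicerflox 3 and EC-DicerWT 3 were nearly equal, and the gap was 0.21 cycles smaller in EC-Dicerflox (1.90 ± 0.092 against 2.11 ± 0.126, SD, n = 3; exact permutation p = 0.1, the smallest possible). The gap of miR-23b to miR-27a, a member of the other cluster, behaved likewise, with 1.76, 1.67 and 1.56 cycles in EC-Dicerflox and 2.01, 1.78 and 1.78 cycles in EC-DicerWT (exact permutation p = 0.1). This difference of -0.19 cycles was -0.11 without EC-DicerWT 1. Groups lay apart in these 2 of the 10 pairs of members, both of which contain miR-23b, and in 11.3% of the 61075 pairs of all miRNAs detected in every sample.

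MiR-27b and miR-23a are the members to which the study's discussion assigns different stability, a fast turnover of miR-27b and a slow turnover of miR-23a in ECs without Dicer. The CT of miR-23a was above that of miR-27b by 8.94, 7.42 and 8.62 cycles in EC-Dicerflox and by 8.11, 9.39 and 9.12 cycles in EC-DicerWT. The groups overlapped, with 8.33 ± 0.802 and 8.87 ± 0.673 cycles (SD, n = 3; exact permutation p = 0.5). The difference of -0.55 cycles fell to -0.09 cycles without EC-Dicerflox 2 and was -0.93 cycles without EC-DicerWT 1. In the a cluster, the gap between miR-23a and miR-27a was 8.10 ± 0.739 cycles in EC-Dicerflox and 8.62 ± 0.645 cycles in EC-DicerWT (SD, n = 3; exact permutation p = 0.5). The difference of -0.53 cycles was -0.13 without EC-Dicerflox 2 and -0.90 without EC-DicerWT 1.

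The CT of miR-24 minus that of miR-27a was -5.41 ± 0.354 cycles in EC-Dicerflox and -5.400 ± 0.272 cycles in EC-DicerWT (SD, n = 3; exact permutation p = 1). The 6 values ran from -5.81 to -5.09, and the difference between the groups from -0.13 to 0.20 cycles when each sample was left out. Against miR-27b, the gap was -5.175 ± 0.208 and -5.148 ± 0.272 cycles (SD, n = 3; exact permutation p = 0.9), and the difference ran from -0.15 without EC-DicerWT 3 to 0.12 without EC-DicerWT 1. The gap between miR-23b and miR-24 was 7.07 ± 0.273 cycles in EC-Dicerflox and 7.25 ± 0.146 cycles in EC-DicerWT (SD, n = 3; exact permutation p = 0.4), and that between miR-23a and miR-24 was 13.5 and 14.0 cycles (exact permutation p = 0.5). Neither exceeded the spread between replicates. The difference of -0.18 cycles for miR-23b was -0.06 without EC-Dicerflox 2 and -0.33 without EC-Dicerflox 3. That of -0.52 cycles for miR-23a was 0.0005 without EC-Dicerflox 2 and -1.04 without EC-DicerWT 1. The p-values of the 10 pairs are unadjusted, and with 3 samples per group none can be under 0.1.

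**Figure D4:**
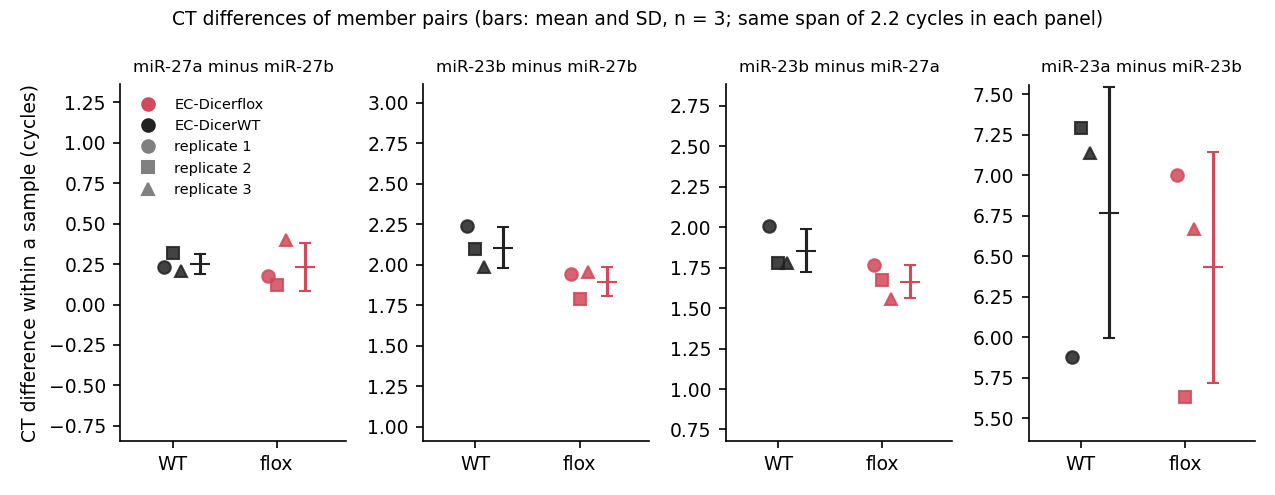
CT difference within each sample, in cycles, for pairs of members, with points for the EC-Dicerflox and EC-DicerWT aortas. The groups separate for miR-23b minus miR-27b (1.79 to 1.96 against 1.98 to 2.24) and for miR-23b minus miR-27a (1.56 to 1.76 against 1.78 to 2.01). MiR-23a minus miR-23b spreads over more than 1 cycle, from 5.63 to 7.29.

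How closely the members followed each other from aorta to aorta was described by the SD of their CT difference over all 6 samples. For miR-27a and miR-27b, the SD was 0.102 cycles, and only 0.0770% of all pairs of miRNAs were tighter. MiR-23b with miR-27a (0.149 cycles) and with miR-27b (0.152 cycles) followed, with 0.398% and 0.429% of all pairs below. The 6 pairs without miR-23a had an SD between 0.102 and 0.283 cycles, compared with a median of 0.861 cycles over all pairs. The 4 pairs with miR-23a, at 0.684 to 0.857 cycles, were below that median too, but by less. For miR-23a with its paralog miR-23b, 38.2% of all pairs were tighter. MiR-27a and miR-27b are on different chromosomes, so the closest pair was the paralogs rather than mates of 1 cluster. Similar sequences, a shared card and a like CT range go together in this pair, and their part in its tightness was not tested.

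For the star strand miR-24-2*, the SD was 0.146 cycles with miR-27a and 0.812 cycles with miR-23a, both of its own cluster, 0.190 with miR-27b and 0.215 with miR-23b of the b cluster, and 0.297 with miR-24. The order did not follow the clusters. The CT of miR-24 minus that of miR-24-2* was -5.51 ± 0.449 cycles in EC-Dicerflox and -5.42 ± 0.117 cycles in EC-DicerWT (SD, n = 3; exact permutation p = 0.9). MiR-24-2* was read on another card than the 5 members.

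Among the other miRNAs, let-7d (SD 0.0853 cycles), miR-30b (0.0878), miR-30a (0.122), miR-328 (0.124) and miR-9 (0.132) had CT values most like the mean of the 5 members over the 6 samples. The broad spread of miR-23a enters this mean. For the mean of the other 4 members, miR-127 (0.0871 cycles), miR-29a (0.0933), miR-143 (0.109), miR-30c (0.110) and miR-365 (0.120) were the nearest. The sets have no miRNA in common, and the order among neighbours rests on differences of hundredths of a cycle.

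**Figure D5:**
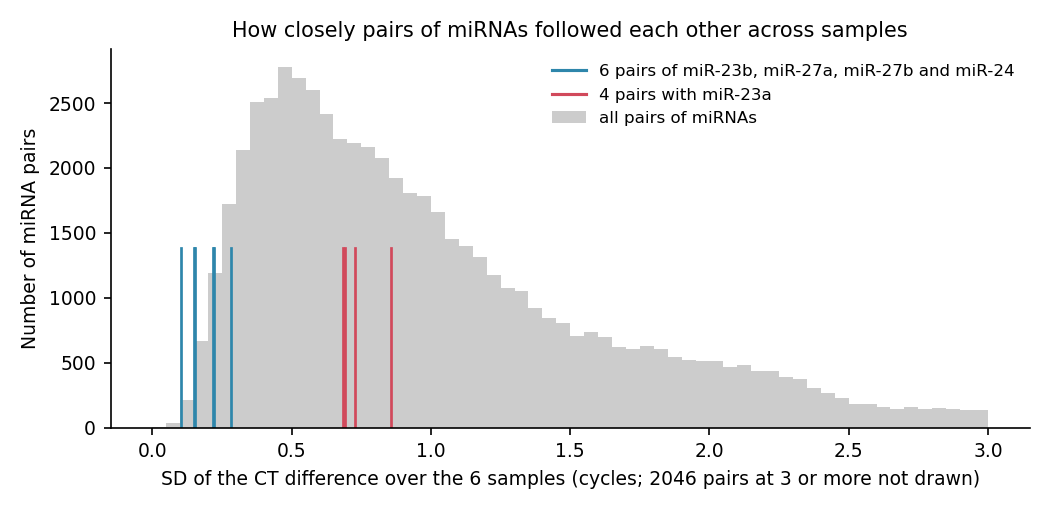
SD over the 6 samples of the CT difference of 2 miRNAs, in cycles, for all 61075 pairs of miRNAs detected in every sample (histogram), with the 10 pairs of members marked. The 6 pairs without miR-23a lie at 0.102 to 0.283 cycles, below most pairs, and the 4 pairs with miR-23a at 0.684 to 0.857 cycles, under the median of 0.861.

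Other miRNAs of vessel growth were taken from a list of 40 names, of which 39 were on the array with 43 tested assays. Of these, 32 had a higher and 11 a lower estimate in EC-Dicerflox, with a median log2 difference of 0.17 (range -2.40 to 1.29), and 0 had a limma p under 0.05, against 3.04% of all miRNAs. The median of the 5 members, 0.18, was close to that of the list. The lowest estimate was that of miR-217, which gave no signal in EC-Dicerflox 3 and EC-DicerWT 1 and had a CT of 35.2 to 39.7 in the other samples. The groups lay apart, with higher levels in EC-Dicerflox, for 5 assays (miR-126-3p, miR-126-5p, miR-29a, miR-34a and 1 of the assays of miR-322), and with lower levels for 1, miR-495. Over all 461 miRNAs, these shares were 6.07% for higher and 4.34% for lower levels.

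The turnover lists of the study's discussion hold a member each. The 11 miRNAs with fast turnover, which are miR-27b, miR-221, miR-103 and 8 members of the let-7 family, had log2 differences between -0.15 and 0.50 (median 0.24, 9 higher and 2 lower). The 4 that are held to be slow, miR-23a with miR-21, miR-26a and miR-126-3p, had differences between 0.25 and 0.70 (median 0.42, 4 higher), and 0 of either list had a limma p under 0.05, against 3.04% of all miRNAs, which in lists of this size tells little. Of the fast miRNAs, miR-103 was at -0.15 and miR-221 at 0.01. Of the slow miRNAs, miR-21 was at 0.25, miR-26a at 0.42 and miR-126-3p at 0.41, and miR-23a had the highest estimate of both lists at 0.70, which was 0.27 without EC-Dicerflox 2. Whether the lists differ was not tested.

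The markers of the cell types of the vessel were read beside these values. The summed relative level of the endothelial miR-126-3p and miR-126-5p was 1.05, 1.72 and 1.18 in EC-Dicerflox and 0.882, 0.906 and 0.837 in EC-DicerWT, on the log2 scale, so it was higher in all 3 EC-Dicerflox aortas, as was miR-23b (6.07% of all miRNAs were). The groups of this sum lay apart with 3 of the 8 references and overlapped with the others, U6 alone among them. Both miR-126 strands are themselves made by Dicer, so EC content and the deletion in ECs cannot be told apart in this sum. EC-Dicerflox 2 was highest for miR-23a, for the endothelial sum, for the striated muscle sum (0.46, against 0.02 to 0.23 in the other samples) and for the liver marker miR-122 (-1.81, against -7.82 to -4.17). That of the smooth muscle markers miR-143 and miR-145 was 4.36, 4.30 and 5.56 in EC-Dicerflox and 4.23, 4.45 and 4.83 in EC-DicerWT, highest in EC-Dicerflox 3. The CT of miR-145 itself was 14.7 to 14.96 in all 6 samples and 14.8 in EC-Dicerflox 3, where the mean CT of the control RNAs was 20.2, compared with 18.7 to 19.6 in the other samples. Of 4 leukocyte markers, 1 had an unadjusted p under 0.05 (3.04% of all miRNAs did), miR-142-5p, with a log2 difference of -0.996. The others were miR-142-3p from the same hairpin, at -0.38, miR-150 at -0.43 and miR-223 at 0.17. The summed level of the 4 overlapped between the groups (-0.89 to -0.23 against -0.54 to 0.32). The part of these markers in the values of the members was not tested.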

How the data were processed

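The authors deposited CT values of TaqMan MicroRNA array cards for 6 aortas, 3 EC-Dicerflox and 3 EC-DicerWT, without normalization, in which a well with no signal has the value 40. RNA was reverse-transcribed and pre-amplified before the cards were run, which adds variation at low levels, and the threshold setting is not given in the sources used here. Columns were assigned by name.

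The mean CT of U6 and of snoRNA135 (4 values per sample) was subtracted from each CT, and the groups were compared with limma 3.58.1 in R 4.3.3 (lmFit and eBayes) over the 461 miRNAs that 1 or more samples showed below 40, with Benjamini-Hochberg adjustment over all of them. Single values were compared by two-sided exact permutation (20 arrangements, smallest p 0.1; scipy 1.17.1). The fit was tested on simulated data. Precision is limited by 3 arrays per group.

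The miRNAs named are the 5 members, the star strands of their hairpins, the turnover and angiogenesis lists, and cell type markers. The members and the lists were chosen with earlier results of these data known. The assay names carry no arm, and the 3′ arm was taken for the members and the 5′ arm for miR-24-2*. The cards were told apart by the style of the assay numbers. Alternatives were other references, other treatment of high CT values, other filters, an ordinary linear model, moderation with trend, a replicate block, and omission of each sample in turn. The likeness without miR-23a, the overlap of raw CT values, the endothelial sum by reference and the share of all pairs with separate groups were added after the data were seen.

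Samples with the same replicate number deviated together (r = 0.150, 0.224 and 0.431 over 350 miRNAs), each over 0.1, the rule for pairing. The labels name no shared litter or day, and EC-Dicerflox 1 with EC-DicerWT 2 (0.285) and EC-Dicerflox 2 with EC-DicerWT 1 (0.117) were also above it, so numbers 1 and 2 were not told apart.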

Additional observations from a re-analysis of the deposited data

How the results depend on the processing

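Over 15 alternatives other than leaving out a sample, the log2 difference was 0.54 to 0.79 for miR-23a, 0.21 to 0.45 for miR-23b, 0.02 to 0.27 for miR-24, 0.02 to 0.26 for miR-27a and 0.00 to 0.24 for miR-27b. The sign of miR-27b turned with snoRNA202 alone as the reference (-0.0033, where the main value was 0.16). With an ordinary linear model, miR-23b had an unadjusted p of 0.0259 at a log2 difference of 0.37 (range over the alternatives 0.0259 to 0.427), and was then the 1 member under 0.05; its adjusted p was 0.891. The count of miRNAs with an unadjusted p under 0.05, 14 in the main setting, was 9 with U6 alone, 24 with the ordinary linear model, and 12 to 22 when each sample was left out, the highest without EC-Dicerflox 1. Leaving out each sample gave 0.27 to 1.19 for miR-23a, 0.28 to 0.42 for miR-23b, 0.01 to 0.27 for miR-24, 0.05 to 0.29 for miR-27a and 0.01 to 0.26 for miR-27b. In this balanced design, the replicate block leaves each log2 difference as it is (0.37 for miR-23b) and can change only its SE and p. For miR-23b, the unadjusted limma p was 0.225 with the block and 0.171 without it. The adjusted p was 0.767 with the block and 0.923 without it. The block gave 15 miRNAs under 0.05 and changed no call of a member. After adjustment, 2 miRNAs passed without EC-Dicerflox 1, 1 passed without EC-Dicerflox 3, and 0 passed in the main setting and under the other alternatives. With 3 arrays per group, the intervals of all 5 members include both lower and higher levels in EC-Dicerflox.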
